A study of Caenorhabditis elegans with 16 samples.

Results

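Transcripts of dissected Caenorhabditis elegans germline tumors after 48 h of auxin were set against those after 4 h of auxin. The 48 h and 4 h libraries were deposited in different tables, so the comparison ran through the 2 h auxin libraries, of which each table holds 2. It used 12 of the 16 libraries of the series: 4 at 48 h, 4 at 4 h and 4 at 2 h. Of 46536 genes, 7240 were kept, those with at least 1 CPM in at least 2 libraries of each table. CPM, the unit the authors deposited, divides each count by its library total and rescales it.

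In the C. elegans germline, the Notch receptor GLP-1 keeps cells at the distal end of the gonad as dividing stem cells. This signal is carried to the DNA by the transcription factor LAG-1, and lst-1 and sygl-1 are the best known genes it switches on there. GLD-1 and GLD-2 act in parallel pathways that move germ cells into meiosis, and germlines without both form tumors of dividing cells. The X chromosome is kept largely silent in dividing and early meiotic germ cells, and most genes used by the germline lie on autosomes.

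The animals at 48 h, 4 h and 2 h were 1-day-old adults of the Bristol strain, each grown for 48 h at 25 °C from synchronised larvae and given 1 mM auxin for the time named. Those of the 4 control libraries, which had no auxin, shared the same alleles and growth. Every animal carried glp-1(ar202), an overactive receptor allele, with lag-1(oz536oz537), gld-1(q485) and gld-2(q497). Each also carried the transgene ieSi64[gld-1p::tir1::mRuby], in which the gld-1 promoter drives TIR1, a plant auxin receptor that marks degron-tagged proteins for breakdown. What oz536oz537 alters in lag-1 is not said in the labels, and no group had auxin with an unaltered lag-1, so an effect of auxin itself cannot be told apart. The longest treatment spanned the whole growth, so how long the animals were exposed and at which stage cannot be told apart. In bulk RNA, fewer cells of a type and less RNA per cell cannot be told apart either.

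The 12 libraries held 17760706 to 33888940 reads, with 8929146 to 20599885 in protein-coding genes. Germline transcripts were high in every library, with glh-1 at 306 to 599 CPM and pgl-1 at 709 to 1191 CPM. The intestinal regulator elt-2 was at 0 in 9 of the 12 libraries and the sperm gene msp-3 at 0 in 12, while the body muscle myosin unc-54 read 24.8 to 55.6 CPM. Within its group 48 h library 1 stood apart, with 44.9% ribosomal RNA against 32.2% to 34.9% in the other 48 h libraries. That share was not particular to it, since the 4 h libraries held 37.7% to 44.6%. The 2 h libraries of the first table held 33.5% and 36.2%, less than those of the second. CPM counts ribosomal RNA in the library total, so a larger share lowers the plain levels of other genes. The longest protein-coding genes of 48 h library 1 (the top of 5 equal bins of length) lay below its shortest by -0.66 (log2). In the other 11 libraries this difference was -0.20 to 0.21. Counts over all genes, and over some of the lists, are therefore given with and without 48 h library 1.

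The fitted difference is the step from 2 h to 48 h in the first table minus the step from 2 h to 4 h in the second. At an adjusted p under 0.05 (limma, Benjamini-Hochberg over 7240 genes), 35 genes were higher at 48 h than at 4 h, which is 0.483% of genes tested, and 135 were lower, which is 1.86%. In all, 849 genes had an unadjusted p under 0.05. Over all genes tested the median fold change was 0.06 (log2). Without 48 h library 1, the counts were 274 higher (3.78%) and 227 lower (3.14%), and these included all 35 and all 135. Relative to the 2 h libraries of its own table, each of the 170 had 48 h and 4 h libraries that did not overlap, as did 11.5% of all genes tested with 48 h above and 8.84% with 48 h below. Leaving out 2 h library 1, 2, 3 or 4 gave 14, 8, 7 or 9 genes higher and 72, 59, 54 or 47 lower. The higher count also fell to between 15 and 19 without 48 h library 2, 3 or 4, or without 4 h library 1 or 2.

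In most called genes the 48 h step was the larger one, and in 6 of the 35 called higher and 8 of the 135 called lower the 4 h step was, as it was in 42.7% of all genes tested. Of the 135 genes called lower, 134 were lower at 48 h than at 2 h in the first table. Of the same 135 genes, 95 were higher at 4 h than at 2 h. The fitted steps had medians of -1.07 (48 h) and 0.13 (4 h) for these genes. Among the 35 called higher, 34 were higher at 48 h than at 2 h and 22 were lower at 4 h than at 2 h, with median steps of 0.72 and -0.12. As plain levels across the tables, all 35 were above and all 135 below on the log2 mean, and the 48 h and 4 h libraries overlapped in 1 gene of the 170. Against the control libraries, 30 of the 35 were above every control at 48 h, as were 14.3% of all genes tested, and 101 of the 135 were below every control, as were 3.66% of all genes tested. These genes were chosen by their 48 h values, so the counts are a description.

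**Figure D1:**
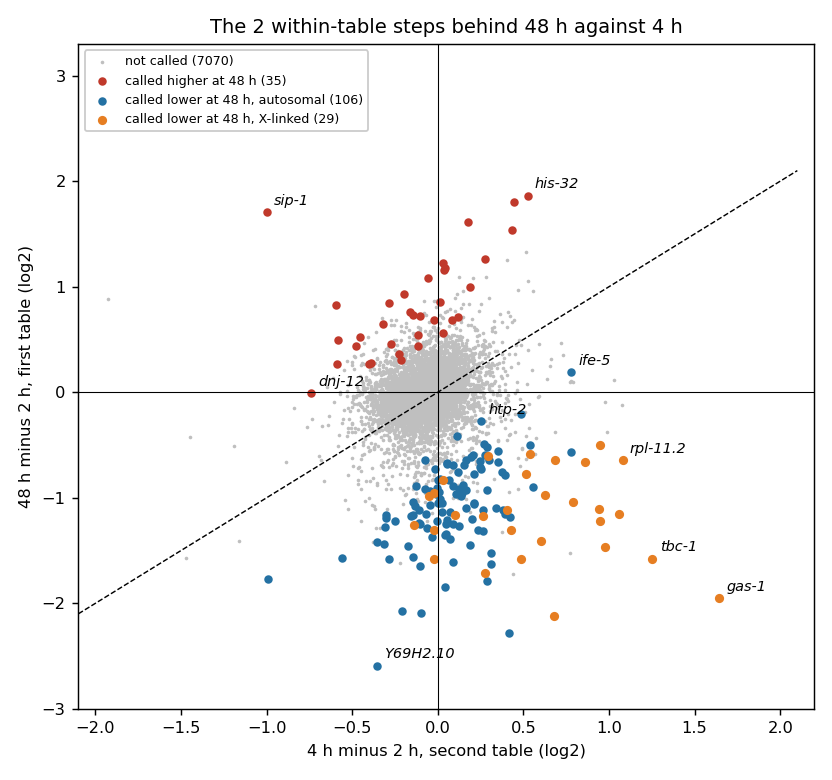
Each point is 1 of the 7240 genes tested. The horizontal axis is the fitted step from 2 h to 4 h in the second table and the vertical axis the fitted step from 2 h to 48 h in the first table, both in log2 units, and the dashed line marks equal steps. The 35 genes called higher lie above the line, mostly through a positive 48 h step, and the 135 called lower lie below it. The X-linked genes among them reach farthest to the right, with gas-1 at 1.64 and tbc-1 at 1.25 on the horizontal axis.

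The gene that the design targets, lag-1, did not pass the test as RNA. It read 42.6, 60.3, 62.1 and 62.0 CPM in 48 h libraries 1 to 4, against 36.7, 39.1, 49.98 and 46.2 CPM in 4 h libraries 1 to 4. The groups overlapped through 48 h library 1, and the fold change was 0.28 ± 0.23 (log2, SE; adjusted p = 0.755, limma). LAG-1 protein was not measured here, and lag-1 RNA does not check its loss.

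The Notch targets lst-1 and sygl-1 were low at both times. For lst-1 the values were 13.9, 18.4, 18.9 and 17.3 CPM at 48 h, against 12.23, 12.61, 15.001 and 14.8 CPM at 4 h and 35.01 to 89.5 CPM in controls. The 48 h and 4 h values overlapped, and all were below every control. For sygl-1 they were 0.957, 2.58, 3.41 and 2.50 CPM at 48 h, against 0.634, 1.19, 0.9748 and 1.15 CPM at 4 h and 8.68 to 29.8 CPM in controls. The fitted 48 h against 4 h differences were -0.07 ± 0.18 for lst-1 and 0.13 ± 0.39 for sygl-1 (log2, SE; adjusted p = 0.978 and 0.981, limma). Their unadjusted 95% intervals ran from -0.47 to 0.33 and from -0.73 to 0.99, so changes within these bounds were not excluded here.

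Of 7 tested genes in a list of known Notch targets, 0 were called higher and 1 lower, utx-1, and the list median was -0.07 against 0.06 over all genes. The utx-1 gene encodes a demethylase of histone H3 lysine 27. It read 0.225, 0.145, 0.211 and 0.154 CPM at 48 h, each close to the level that 3 reads give in its library, against 1.71, 0.999, 0.596 and 1.15 CPM at 4 h. The 2 h libraries read 0.658 and 1.1025 CPM in the first table and 0.110 and 0.177 CPM in the second, and controls read 0.335, 1.35, 0.153 and 1.13 CPM. The 48 h values were below every 4 h value, but the second table's 2 h libraries and 1 control were within or below their range. In the second table utx-1 passed the filter only through 4 h libraries 1 and 4. It thus entered the test through the group where it is higher, and its call is a description. The fitted change was -1.52 ± 0.26 (log2, SE; adjusted p = 0.00963, limma), against -0.81 as a plain level difference. The call was lost without 2 h library 2, 3 or 4, with adjusted p of up to 0.0618. A Notch pathway list held 22 tested genes (ligand, receptor, processing enzymes, co-factors and other regulators such as puf-8 and ego-1). Of these and of 24 stem cell regulators, 0 were called in either direction, beside 2.35% of all genes tested. In the fit without 48 h library 1, 3 of the 24 were called higher and 1 lower, and 0 of the 22 were called. The known Notch targets then gave 2 lower of 7. Shares over all genes in that fit were 3.78% higher and 3.14% lower. The gene of the pathway with the smallest p was epn-1, an endocytic adaptor, at -1.15 (log2, adjusted p = 0.122). Its levels across tables were 0.619 to 1.503 CPM at 48 h and 0.921 to 1.45 CPM at 4 h, and without 2 h library 1 its adjusted p was 0.0193.

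The receptor glp-1 averaged 279 ± 50.05 CPM at 48 h and 266 ± 17.9 CPM at 4 h (SD, n = 4 each), a fitted change of 0.11 ± 0.22 (log2, SE). The meiotic entry genes gld-1 and gld-2 had fitted changes of 0.08 ± 0.23 and 0.11 ± 0.28. The gld-1 libraries illustrate how the link through 2 h acts on a value. At 48 h gld-1 averaged 72.3 ± 13.4 CPM and at 4 h 45.1 ± 6.19 CPM, without overlap, but the 2 h libraries of the second table were also lower than those of the first by -0.58 (log2), so the fitted difference was near 0. For gld-1 and gld-2 the transcripts come from mutant alleles.

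The largest rise among the genes named was in sip-1, which encodes a small heat shock protein (WBGene00004798, chromosome III, 10506106 to 10506801 in WBcel235, minus strand). It read 149.99, 304, 216 and 233 CPM in 48 h libraries 1 to 4, against 15.8, 15.4, 29.2 and 23.4 CPM in 4 h libraries 1 to 4. The 2 h libraries read 70.3 and 62.6 CPM in the first table and 39.4 and 43.7 CPM in the second, and controls 25.8 to 73.5 CPM. Every 48 h library was above every control, and every 4 h library was below every 2 h library. The fitted change was 2.71 ± 0.38 (log2, SE; adjusted p = 0.00334, limma), made of a 48 h step of 1.71 and a 4 h step of -1.0007. It was called in each of 26 settings. Exons of F43D9.8 overlap sip-1 on the opposite strand, and whether reads were counted by strand is not stated in these sources.

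The difference in dnj-12, a DnaJ chaperone cofactor gene, lay in the 4 h step, which was -0.74 against a 48 h step of -0.01. It read 83.0, 87.6, 101 and 91.1 CPM at 48 h, against 39.0, 51.1, 46.4 and 39.0 CPM at 4 h. The groups did not overlap, and the fitted change was 0.73 ± 0.17 (log2, SE; adjusted p = 0.0495, limma). The call was lost in 10 of 12 fits that left out 1 library, with adjusted p from 0.0707 to 0.291, and held without 48 h library 1 or 4 h library 2. Exons of tmem-107 overlap it on the opposite strand. Of 25 tested heat shock and unfolded protein genes, sip-1 and dnj-12 were the 2 called higher (beside 0.483% of all genes tested) and 0 were called lower, and 22 had a positive fold change (median 0.26 against 0.06 for all genes). Without 48 h library 1, 9 of the 25 were called higher, beside 3.78% of all genes.

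Histone genes gave 3 calls, all higher at 48 h, among 22 tested core and variant histone genes, beside 0.483% of all genes tested. The his-32 gene, for histone H3 (WBGene00001906, chromosome IV, 8334305 to 8334715, plus strand), read 22.02, 26.3, 22.8 and 25.5 CPM at 48 h, against 6.63, 5.57, 7.26 and 6.15 CPM at 4 h. All 48 h libraries were above all others, since the 2 h libraries read 4.07 to 5.91 CPM and the controls 2.72 to 5.998 CPM. The change was 1.34 ± 0.15 (log2, SE; adjusted p = 0.00111, limma).

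The neighbouring H4 gene and an H2A gene also passed the test. The H4 gene his-31, which lies beside his-32 from 8333672 to 8333983, averaged 6.83 CPM at 48 h and 3.09 CPM at 4 h, a change of 1.104 (log2, adjusted p = 0.0102, limma), and its call was lost without 2 h library 2, 3 or 4 (adjusted p 0.0548 to 0.0694). The H2A gene his-3 (chromosome V, 16040808 to 16041191) read 5.12, 5.42, 5.80 and 6.20 CPM at 48 h, against 1.80, 1.76, 1.68 and 1.55 CPM at 4 h. Its groups did not overlap and its change was 1.36 ± 0.15 (log2, SE; adjusted p = 0.00111, limma). Both his-3 and his-32 were called in every setting that tested them. The other 19 tested histone genes were not called, the median of all 22 was -0.01, and 50 of 72 core and variant histone genes were below the filter. Histone genes have near-identical copies, and how reads that match several copies were counted is not stated in these sources, so the split of reads between copies is uncertain.

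Of the other genes in the 10 largest rises, R10E4.1 (chromosome III, 4269743 to 4272510) was called in every setting. It read 15.8, 14.8, 17.7 and 16.18 CPM at 48 h, against 6.38, 6.76, 7.53 and 6.85 CPM at 4 h, and 5.46 to 6.96 CPM in all 2 h and control libraries. The 48 h libraries thus stood above all 12 others, with a change of 1.13 ± 0.14 (log2, SE; adjusted p = 0.00120, limma). The acid phosphatase gene pho-12 read 5.18, 4.40, 6.26 and 5.86 CPM at 48 h, against 1.998, 1.57, 1.2997 and 1.90 CPM at 4 h. Its groups did not overlap, its change was 1.19 ± 0.21 (adjusted p = 0.0103, limma), and the call was lost without 2 h library 1 or 4 (adjusted p 0.0779 at most).

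The rises of gei-8, nhr-47, eri-12, Y54G2A.36 and C30F12.5 rested on more libraries of the fit. The co-repressor gene gei-8 read 8.05, 13.2, 12.5 and 13.8 CPM at 48 h, against 2.29, 3.19, 3.85 and 3.80 CPM at 4 h, a change of 1.44 ± 0.32 (log2, SE; adjusted p = 0.0391, limma). The nuclear receptor gene nhr-47 read 8.61, 9.27, 13.6 and 12.7 CPM at 48 h, against 2.58, 2.81, 3.41 and 3.55 CPM at 4 h, a change of 1.13 ± 0.24 (adjusted p = 0.0297, limma). In both genes the lowest 48 h library was more than 2 times the highest 4 h library. The changes of eri-12, Y54G2A.36 and C30F12.5 were 1.13, 1.14 and 1.13, with adjusted p of 0.0406, 0.0340 and 0.0459. Each of these 5 calls was lost in 7 to 11 of 12 fits that left out 1 library, with adjusted p of up to 0.215 for gei-8, 0.127 for nhr-47, 0.225 for eri-12, 0.205 for Y54G2A.36 and 0.266 for C30F12.5. The libraries were each of the 2 h libraries (save 2 h library 2 for C30F12.5), 48 h library 4 and 4 h library 1, with 48 h libraries 2 and 3 added for gei-8, eri-12 and C30F12.5. Also added were 4 h library 2 for all 5, 4 h library 3 for all but nhr-47, and 4 h library 4 for gei-8, Y54G2A.36 and C30F12.5. All but eri-12 overlap exons of another gene on the opposite strand.

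**Figure D2:**
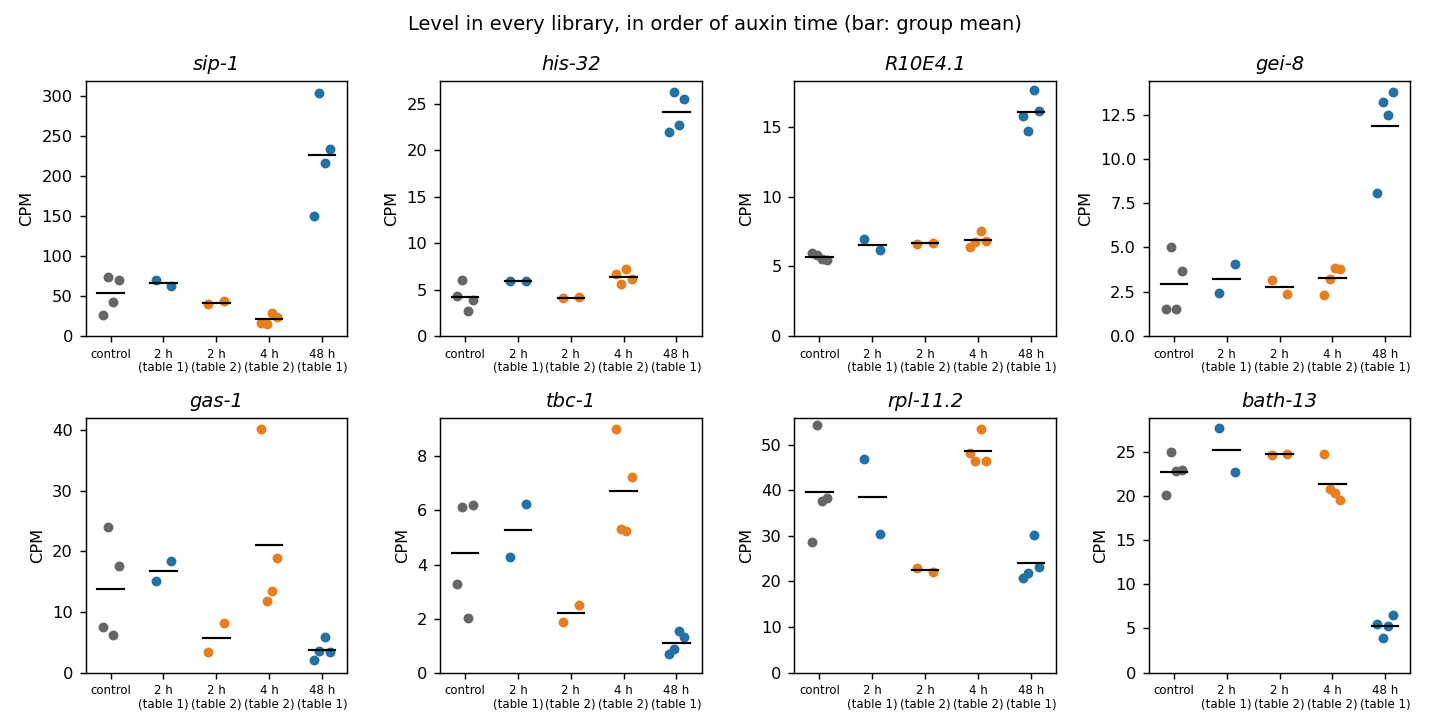
Each panel gives 1 gene, with CPM on the vertical axis from 0 and the groups in order of auxin time on the horizontal axis. Points are libraries (4 control, 2 and 2 at 2 h, 4 at 4 h and 4 at 48 h), bars are group means, and colours mark the table, with the 4 control libraries of the first table in grey. The 48 h libraries of sip-1, his-32, R10E4.1 and gei-8 stand above every other library, and those of bath-13 below every other library, while gas-1, tbc-1 and rpl-11.2 differ between the 2 h libraries of the tables.

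Among the genes that fell, X-linked genes made up 29 of 135. These were 10.4% of the 278 X-linked genes tested, against 106 of 6931 autosomal genes (1.53%) and 1.86% of all genes. The X chromosome was looked at after the values had been seen, so no test is given for this share. It was higher on X at each level of expression: among genes of 10 to 50 CPM, 3 of 24 X-linked genes (12.5%) and 17 of 2332 autosomal genes (0.729%) were called lower, and under 2 CPM 10 of 116 (8.62%) and 32 of 743 (4.31%). The X-linked genes as a whole had a median change of -0.03 against 0.06 over all genes, and 0 of 278 were called higher. Without 48 h library 1, 43 of the 278 were called lower and 16 higher, beside 3.14% and 3.78% of all genes in that fit.

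The table term of these genes was lower than that of most others. It is the fitted difference between the 2 h libraries of the second and of the first table, and it enters each 48 h against 4 h value. All 29 X-linked genes called lower had a negative table term (median -0.59), as did 221 of the 278 tested on X (median -0.22), against 4478 of all 7240 (median -0.05). A negative term lowers the fitted value, so genes called lower are partly selected for it. Of the 106 autosomal genes called lower, 87 had one (median -0.15). Low terms were not particular to X: muscle markers had 19 of 22 negative (median -0.40) and oogenesis genes 43 of 49 (median -0.25). Recombination genes had 12 of 30 (median 0.04). The plain levels of these 29 across tables were also lower at 48 h than at 4 h, by a median of -1.03 (log2). They did so without overlap in any of the 29, as in 20.5% of X-linked genes tested and 8.43% of all genes tested. In the other direction, 48 h was above every 4 h library in 23.7% of X-linked genes tested and 18.8% of all genes tested. The median plain level difference was 0.10 (log2) over X-linked genes and 0.09 over all genes tested. At 48 h 18 of the 29 were below every control, as were 12.9% of X-linked genes and 3.66% of all genes tested. Whether the table term comes from the tables or from the 2 h animals was not tested. The summed CPM of all X-linked genes was 1929 to 2318 at 48 h and 1885 to 2123 at 4 h, and at 2 h 2204 to 2258 in the first table and 1827 to 1894 in the second.

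**Figure D3:**
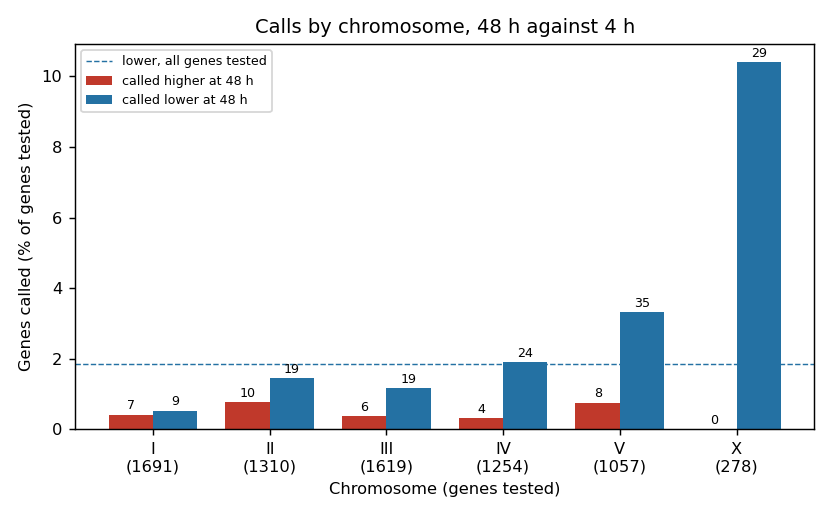
The bars give the share of tested genes (vertical axis, percent from 0) called higher (red) and lower (blue) at 48 h on each chromosome, with the number of calls above each bar and the number tested below it. The dashed line is the 1.86% called lower over all genes tested. X stands above the other chromosomes with 10.4% called lower, V follows with 3.31% and I is lowest with 0.532%.

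The largest fall was in gas-1, which encodes a core subunit of respiratory complex I (WBGene00001520, chromosome X, 15586786 to 15590397 in WBcel235, minus strand). It read 2.08, 3.53, 5.94 and 3.47 CPM in 48 h libraries 1 to 4, against 40.11, 11.8, 13.4 and 18.9 CPM in 4 h libraries 1 to 4. The 2 h libraries read 15.1 and 18.3 CPM in the first table and 3.34 and 8.23 CPM in the second. Thus 48 h was below every 4 h library, while the 2 h libraries of the tables lay on opposite sides. The fitted change was -3.59 ± 0.63 (log2, SE; adjusted p = 0.0103, limma), against -2.11 as a plain level difference. The call was lost without 2 h library 2 or 3 (adjusted p 0.0618 to 0.0711). Controls read 7.51, 24.0, 6.11 and 17.5 CPM, where control libraries 1 and 3 had 53.3% and 51.7% ribosomal RNA and the other controls 33.9% and 34.0%. Exons of K09A9.6 overlap gas-1 on the opposite strand.

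The suca-1 gene encodes the beta subunit of the citric acid cycle enzyme succinyl-CoA ligase (chromosome X, 10897678 to 10900114, minus strand). It read 9.57, 8.66, 19.5 and 24.2 CPM at 48 h, against 63.1, 55.9, 64.3 and 58.2 CPM at 4 h. The 2 h libraries read 54.4, 77.1, 30.5 and 45.4 CPM and controls 35.7 to 70.1 CPM, so every 48 h library was below every other library. The change was -2.80 ± 0.47 (log2, SE; adjusted p = 0.00963, limma), and the call was lost without 2 h library 2 or 3 (adjusted p 0.0618 to 0.0664).

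The tbc-1 gene, of the family of TBC-domain regulators of Rab GTPases (chromosome X, 14970751 to 14974779, plus strand), read 0.676, 0.873, 1.55 and 1.31 CPM at 48 h, against 9.02, 5.33, 5.25 and 7.25 CPM at 4 h. All other libraries were above its 48 h libraries, the nearest being 1.87 CPM in 2 h library 3. Its change of -2.83 ± 0.32 (log2, SE; adjusted p = 0.00111, limma) was called in all 26 settings. The ribosomal protein gene rpl-11.2 (chromosome X, 2241738 to 2242618) read 20.8, 21.8, 30.3 and 23.2 CPM at 48 h, against 48.2, 46.4, 53.5 and 46.5 CPM at 4 h. The 48 h and 4 h groups did not overlap, but the 2 h libraries spanned 22.01 to 46.8 CPM. Its change was -1.72 ± 0.24 (adjusted p = 0.00284, limma), called in all 26 settings. It was the 1 called gene of 80 tested ribosomal protein genes (median 0.00), beside 2.35% of all genes tested in either direction.

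Other X-linked genes of the 10 largest falls were pqn-65 at -2.21, T20F7.1 at -2.17 and snrp-40.1, a spliceosomal protein gene, at -1.99 (log2; adjusted p = 0.00972, 0.00303 and 0.0124, limma). For pqn-65 the values were 1.52, 2.80, 4.08 and 2.196 CPM at 48 h, against 5.31, 5.09, 7.04 and 4.90 CPM at 4 h, and the call was lost without 2 h library 1 or 4 (adjusted p 0.0691 to 0.0740). Its 2 h libraries read 8.56 and 5.45 CPM in the first table and 2.93 and 1.505 CPM in the second, and its plain level difference was -0.89. The 48 h libraries of pqn-65 overlapped the 2 h libraries of the second table and the controls, at 3.27 to 8.02 CPM. For snrp-40.1 they were 2.03, 1.2003, 1.37 and 0.809 CPM at 48 h, against 4.00, 5.95, 5.36 and 7.1997 CPM at 4 h, and the call was lost without 2 h library 2 or 4 (adjusted p 0.0813 to 0.0864). T20F7.1 kept its call without any single library. In these 3 genes no 48 h library reached the lowest 4 h library.

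Of all 135 genes called lower, 110 averaged under 10 CPM over the 12 libraries, and the median was 3.62 CPM against 31.3 CPM for all genes tested. Of the 29 X-linked genes called lower, 8 were called in each fit that left out 1 library.

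**Figure D4:**
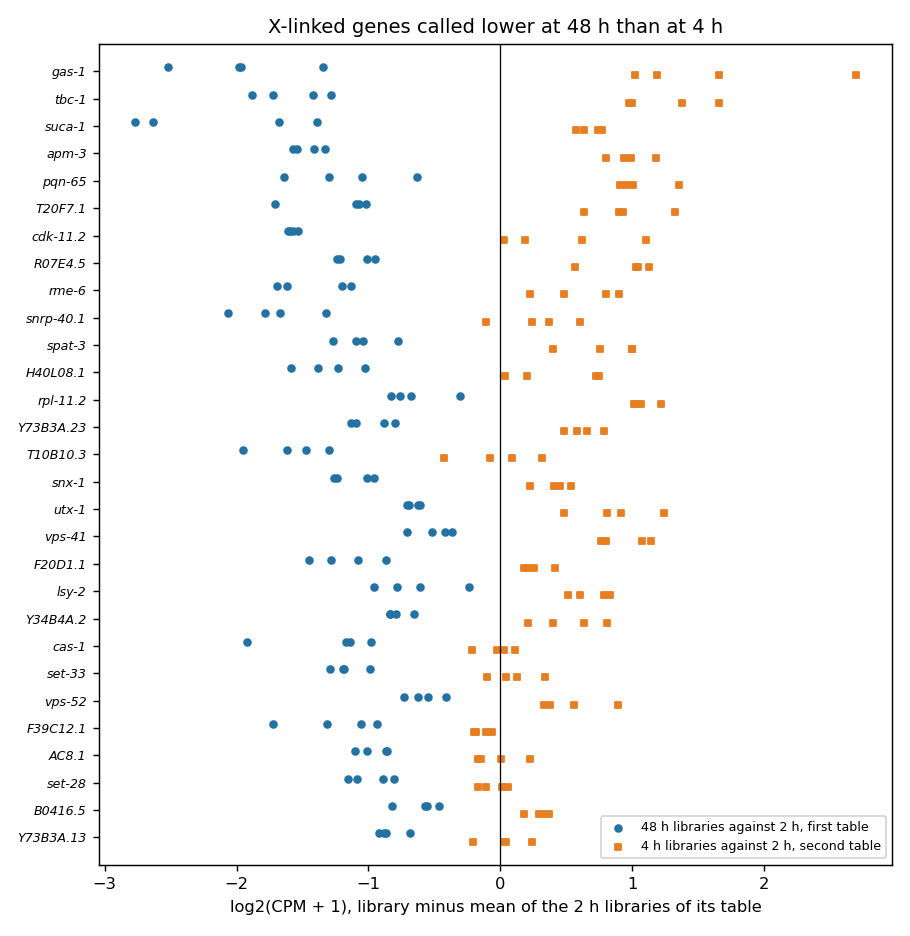
Each line of points is 1 of the 29 X-linked genes called lower, in order of fold change. The horizontal axis gives log2(CPM + 1) of a library minus the mean of the 2 h libraries of its table, with the 4 libraries of 48 h as circles and the 4 libraries of 4 h as squares. The 48 h circles lie left of 0 and left of every 4 h square of the same gene, and for gas-1 the squares spread from 1.022 to 2.70.

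Several autosomal genes fell with a table term close to 0. The BTB/MATH-domain gene bath-13 (chromosome II, 2520842 to 2522060, minus strand) read 5.46, 3.89, 5.24 and 6.47 CPM at 48 h, against 24.8, 20.8, 20.3 and 19.5 CPM at 4 h. The 2 h libraries and controls read 20.1 to 27.7 CPM, so the 48 h libraries alone were low. Its change was -1.87 ± 0.22 (log2, SE; adjusted p = 0.00111, limma), with a table term of -0.02. The nuclear receptor gene nhr-145 (chromosome V, 19087723 to 19092660) read 1.24, 0.655, 1.0196 and 0.886 CPM at 48 h, against 5.41, 6.81, 6.17 and 7.70 CPM at 4 h, a change of -1.88 ± 0.21 (adjusted p = 0.00111, limma). Its 48 h libraries were also below every 2 h and control library.

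Y69H2.10 (chromosome V, 18670317 to 18684378) read 0.338, 0.218, 0.316 and 0.501 CPM at 48 h, against 3.90, 4.57, 6.82 and 5.25 CPM at 4 h. C38D9.2 (chromosome V, 17567150 to 17571742) read 1.18, 1.96, 2.04 and 2.196 CPM at 48 h, against 14.3, 11.4, 14.6 and 17.4 CPM at 4 h. In both genes the 48 h libraries were below every other library of the series. The changes were -2.23 ± 0.26 and -2.70 ± 0.34 (log2, SE; adjusted p = 0.00117 and 0.00190, limma). All of bath-13, nhr-145, Y69H2.10 and C38D9.2 were called in each of 26 settings.

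The sex determination gene tra-3, for a calpain protease that promotes female fate, was the 1 gene called of 25 tested in its list. Over all genes tested, 2.35% were called in either direction. The tra-3 gene read 1.97, 2.36, 3.20 and 2.39 CPM at 48 h, against 6.77, 6.38, 7.42 and 7.95 CPM at 4 h. Controls read 3.96 to 7.67 CPM, above every 48 h library, and the change was -1.25 ± 0.19 (log2, SE; adjusted p = 0.00565, limma), called in all 26 settings. The neuronal secretion gene unc-31 read 1.13, 0.764, 1.09 and 1.39 CPM at 48 h, against 3.56, 3.62, 5.69 and 4.10 CPM at 4 h. It was the 1 gene called of 9 tested neuron markers, at -1.22 ± 0.23 (adjusted p = 0.0179, limma), and was not called without 2 h library 1, 2, 3 or 4 (adjusted p 0.0618 to 0.107).

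Of 61 tested genes in 4 meiotic lists, 2 were called lower (3.28%, beside 1.86% of all genes tested) and 0 higher. The HORMA-domain axis gene htp-2 (chromosome IV, 6419522 to 6420898) read 49.3, 46.6, 49.8 and 46.7 CPM at 48 h, against 58.8, 58.3, 65.1 and 63.05 CPM at 4 h. The groups did not overlap, and both were above the controls, at 26.97 to 39.0 CPM. The change was -0.53 ± 0.11 (log2, SE; adjusted p = 0.0278, limma), the smallest fall among genes called, and it was lost in 8 of 12 fits that left out 1 library (48 h 2 or 4, any 2 h library, 4 h 3 or 4; adjusted p 0.0567 to 0.145). Its near-identical copy htp-1 read 133, 109.6, 117 and 109.9 CPM at 48 h, against 144, 149, 157 and 151 CPM at 4 h, at -0.48 ± 0.13 (adjusted p = 0.102; 0.00542 without 48 h library 1). Reads shared by the copies could have been split between them.

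The him-5 gene, needed for crossing over on X, read 15.4, 12.9, 13.4 and 13.2 CPM at 48 h, against 23.5, 20.7, 24.2 and 24.8 CPM at 4 h. Its groups did not overlap, and its change was -0.81 ± 0.15 (log2, SE; adjusted p = 0.0132, limma), not called without 2 h library 1, 3 or 4 (adjusted p 0.0664 to 0.0873). In the lists, htp-2 was the 1 called of 12 axis and cohesion genes (median -0.18, with 2 above 0), and him-5 the 1 called of 30 recombination genes (median 0.02). In the fit without 48 h library 1, 3 of the 12 and 1 of the 30 were called lower, beside 3.14% of all genes. None of 6 synaptonemal complex genes (median -0.17) and 14 pairing genes (median -0.02) was called by limma. The smallest p in these belonged to syp-4 at -0.28 (unadjusted interval -0.55 to -0.01; adjusted p = 0.399) and hal-2 at -0.22 (adjusted p = 0.553).

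Of dividing-cell genes, 0 of 49 mitotic cell cycle genes (median 0.04) and 0 of 42 DNA replication genes (median 0.10) were called. Over all genes tested the share called in either direction was 2.35%, so counts of 0 in lists of this size say little. The Aurora kinase gene air-1 had the smallest p of the first, with 105, 98.6, 105 and 89.8 CPM at 48 h against 65.6, 67.005, 71.3 and 74.5 CPM at 4 h. Its plain levels did not overlap, but much of the difference was a 4 h step of -0.30, and the fitted change of 0.40 had an adjusted p of 0.151 (limma). The replication kinase gene cdc-7 was at 0.33 (adjusted p = 0.419). Without 48 h library 1, 5 of the 42 replication genes were called higher, beside 3.78% of all genes.

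Of 49 tested oogenesis and maternal genes (median 0.13), 0 were called, beside 2.35% of all genes tested. Without 48 h library 1, 8 of them were called higher, beside 3.78% of all genes. The smallest p was for memi-2, with a role in female meiosis, at 24.1 to 30.7 CPM at 48 h and 13.7 to 18.05 CPM at 4 h, a fitted change of 0.69 (log2, adjusted p = 0.0791, limma; 0.0171 without 48 h library 1). Among 13 tested spermatogenesis genes the 1 call was smz-1, a sperm meiosis gene, which averaged 2.40 ± 0.503 CPM at 48 h and 5.44 ± 0.856 CPM at 4 h (SD, n = 4 each), a change of -1.09 ± 0.24 (adjusted p = 0.0327, limma). That call was lost in 9 of 12 fits that left out 1 library (48 h 2 or 3, any 2 h library, 4 h 1, 3 or 4; adjusted p 0.0530 to 0.214). None of 35 major sperm protein genes passed the filter.

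Small RNA and germ granule lists held 0 called of 43 and 0 called of 16, with medians of 0.02 and 0.09. Over all genes tested 2.35% were called in either direction, which is the share beside all counts given here. Apoptosis and engulfment genes gave 0 of 26 (median 0.08), SCF ubiquitin ligase and proteasome genes 0 of 50 (median 0.20) and mitochondrially encoded genes 0 of 12. In the fit without 48 h library 1, 4 of the 43, 1 of the 26 and 3 of the 50 were called higher. There 1 of the 12 mitochondrial genes was called lower. Shares over all genes in that fit were 3.78% higher and 3.14% lower. The mitochondrial genes had a median of -0.17, with 0 of 12 above 0, and nduo-6 read 143 to 325 CPM at 48 h and 247 to 365 CPM at 4 h (adjusted p = 0.508, limma; 0.0154 without 48 h library 1). Of 39 germline chromatin genes, utx-1 was the 1 called. Of 15 xenobiotic and oxidative response genes 0 were called, and of 6 immune response genes pals-25 was called, at a mean of 0.347 CPM at 48 h and 0.809 CPM at 4 h (-0.95, adjusted p = 0.0421, limma). The pals-25 call was lost in 9 of 12 fits that left out 1 library (48 h 2, 3 or 4, any 2 h library, 4 h 3 or 4; adjusted p of up to 0.219). In the second table pals-25 passed the filter only through 4 h libraries 3 and 4, in the group where it is higher.

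Somatic markers were measured beside these lists, and their part in the results was not tested. The summed level of 32 muscle markers was 340.1 to 512 CPM at 48 h and 232 to 298 CPM at 4 h, that of 25 somatic gonad markers 360 to 479 CPM and 319 to 374 CPM, and that of 29 intestine markers 259.6 to 376 CPM and 227 to 265 CPM. In the 2 h libraries muscle markers summed to 389.5 to 427 CPM in the first table and 296 to 302 CPM in the second. Neuron markers summed to 105 to 188 CPM at 48 h and 153 to 180 CPM at 4 h, and cuticle markers to 169.9 to 233 CPM and 185 to 225 CPM. Single genes made up a large part of some sums. The intestine marker gcs-1 averaged 139.1 CPM, the muscle marker unc-60 128.8 CPM and the cuticle marker bli-4 133.2 CPM. Of the 29 intestine markers, 10 reached 1 CPM in any of the 12 libraries, and ges-1 read at most 0.37 CPM. The sums alone therefore do not show how much somatic tissue a library held. In the fit, 0 of 22 muscle genes (median 0.35), 0 of 16 somatic gonad genes (median 0.30), 0 of 4 intestine genes (median 0.40) and 0 of 10 cuticle and epidermis genes (median -0.06) were called. Over all genes tested, 2.35% were called in either direction. In the fit without 48 h library 1, 4 muscle, 1 somatic gonad and 1 intestine gene were called higher, beside 3.78% of all genes. The gap junction gene inx-8 of the somatic gonad read 55.1, 46.8, 50.9 and 49.0 CPM at 48 h, against 29.1, 29.9, 27.9 and 31.1 CPM at 4 h, at 0.46 ± 0.13 (adjusted p = 0.108, limma; 0.0433 without 48 h library 1).

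**Figure D5:**
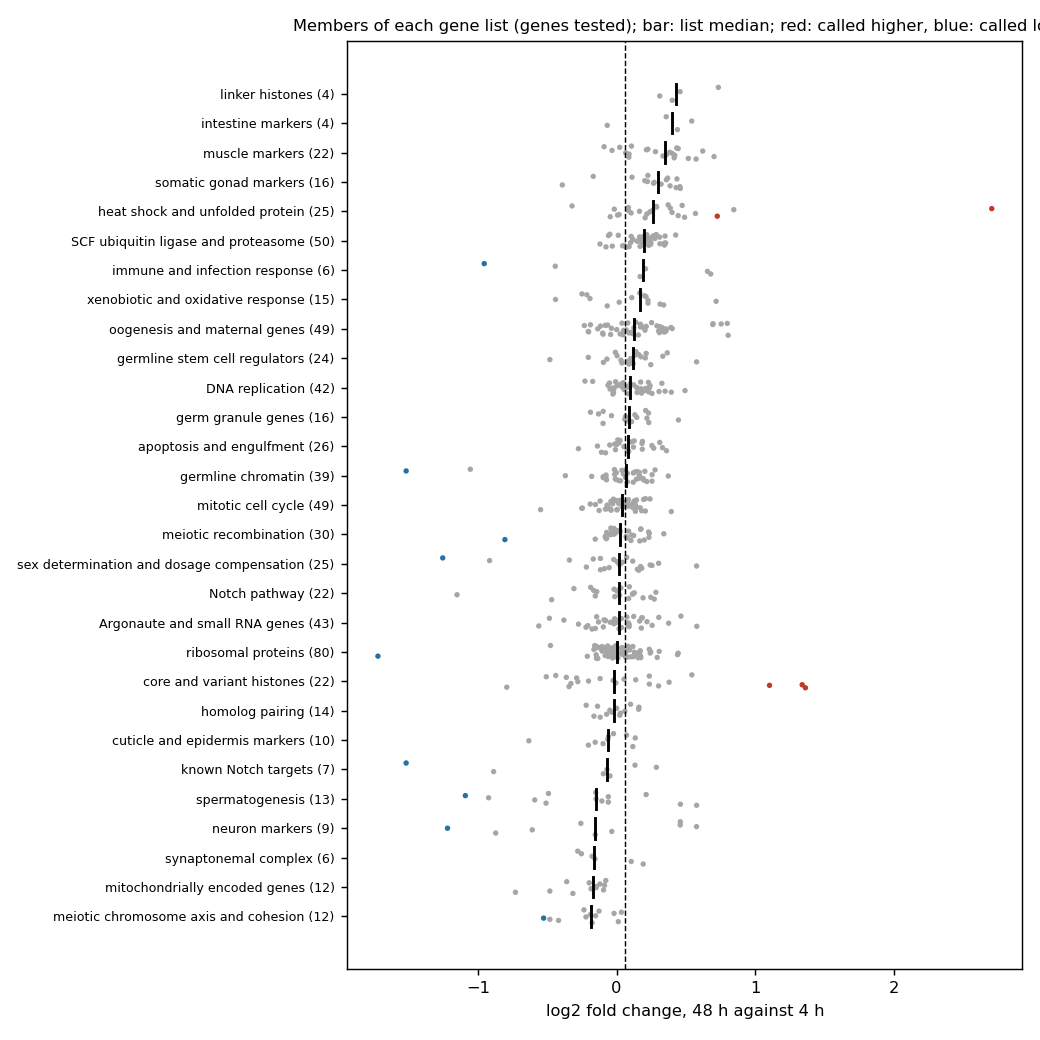
Each point is a tested member of a gene list, with its fitted log2 fold change of 48 h against 4 h on the horizontal axis, and the number tested beside the list's name. Black bars are list medians, the dashed line is the median of all genes tested (0.06), red points were called higher and blue points lower. Medians run from -0.18 for axis and cohesion genes to 0.43 for linker histones, and uncalled members reach past 0.5 on both sides, among them epn-1 at -1.15.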

How the data were processed

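RNA of 16 ribosomal-RNA-depleted libraries of dissected germline was deposited as a signal per gene, named CPM by the authors, in a table of 10 and a table of 6 libraries. The submitters' processing notes name, with no settings, the aligner STAR 2.0.4b, featureCounts 1.4.5 of Subread, limma and edgeR. Not given in the sources used here are the genome build, the annotation, the strand setting and the handling of multiply mapped reads. With 1 line kept per gene, all values came out as whole reads (100%, tolerance 0.1 read), so whole reads were recovered. A count of 0 allows up to 3 reads, 0.0885 to 0.169 CPM, for counting error only. No pair of libraries of a group agreed within sampling noise (lowest chi-square per degree of freedom 4.00).

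Genes with at least 1 CPM in at least 2 columns of each table were tested with limma 3.58.1 (R 4.3.3, mean-variance trend) on log2(CPM + 1), with terms for group and table over 12 libraries (8 residual degrees of freedom), 2-sided, Benjamini-Hochberg adjusted. Fold changes on this scale understate low genes. The recovered reads were also tested with edgeR and DESeq2. P-values measure the spread between libraries called biological replicates by the series; how each was collected is not stated. It is not stated either if the tables are batches.

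Named genes are gld-1 and gld-2, glp-1, lag-1 and its targets sygl-1 and lst-1. Added were, of the called genes without overlap, the 10 that rose and the 10 that fell most with a mean of at least 5 CPM in the higher group, and from each of 30 lists the called members with the largest changes or, with none called, the smallest p. Others were named after their values were seen. Members and lists were chosen with earlier results of these data known, so no list has a test of its own. Coordinates come from the Ensembl annotation of WBcel235, not stated to be the authors' build, in which 46363 of 46536 gene IDs were found.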

Additional observations from a re-analysis of the deposited data

Results flagged for a closer look

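Chance alone picks out about 1 in 20 groups as holding a far library, and 5 of 106 groups did so. In 48 h library 1, T20F7.1 read 1.35 CPM against 2.60 to 2.80 CPM in the other 48 h libraries, gld-2 read 31.9 CPM against 54.3 to 57.2 CPM, and lag-1 read 42.6 CPM against 60.3 to 62.1 CPM. In 48 h library 3, mlc-2, a muscle myosin light chain gene, read 7.35 CPM against 6.08 to 6.29 CPM in the others. In 48 h library 4, C30F12.5 read 5.97 CPM against 5.07 to 5.20 CPM.

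Some called genes moved one way from 2 h to 48 h and the other way from 2 h to 4 h in every library of each group, with the difference tested by the fit itself (limma). Lower at 48 h and higher at 4 h than at 2 h were gas-1 (-3.59), tbc-1 (-2.83), suca-1 (-2.80), C38D9.2 (-2.70), pqn-65 (-2.21), T20F7.1 (-2.17), rpl-11.2 (-1.72), utx-1 (-1.52), tra-3 (-1.25), pals-25 (-0.95), him-5 (-0.81) and htp-2 (-0.53). Higher at 48 h and lower at 4 h than at 2 h were sip-1 (2.71), Y54G2A.36 (1.14), eri-12 (1.13) and C30F12.5 (1.13). The values are log2 fold changes of 48 h against 4 h.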

How the results depend on the processing

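All 170 calls kept their direction in each of the 25 alternatives that tested them, but counts moved. Genes higher at 48 h numbered 8 with a filter of 5 CPM, 81 with the length trend removed, 97 with DESeq2, 20 with all 16 libraries and 7 to 274 with 1 library left out. Genes lower numbered 80 with no filter, 42 with 5 CPM, 280 with the length trend removed, 211 with edgeR, 272 with DESeq2 and 47 to 227 with 1 library left out. X-linked genes lower numbered 12, 50 and 48 with 5 CPM, the length trend removed and DESeq2, 18 with all 16 libraries, and 11 to 43 with 1 library left out. Median centring without the first 48 h library, chosen after the data had been seen, gave 311 higher, 494 lower and 57 X-linked lower. The table term called 2 genes, 1 with no filter or 5 CPM, 6 with median centring or protein-coding scaling, 57 with the length trend removed, 11 with edgeR, 118 with DESeq2, 439 with centring without the first 48 h library, and 0 to 203 with 1 library left out. The cause was not tested.

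Whether replicate numbers pair the libraries was not clear: same-numbered 48 h and 4 h deviations correlated at 0.44, 0.01, 0.22 and 0.02, and 2 of 4 numbers correlated best with their own. The fit with a replicate block called 17 genes higher and 190 lower, and 693 for the table term. The 2 h libraries 1 and 2 lie in the first table and 3 and 4 in the second, so block and table term are entangled there. The fit with the block turned gld-1 (-0.25), gld-2 (-0.23), glp-1 (-0.13), sygl-1 (-0.21) and lag-1 (-0.0269), none of them called. Leaving out 1 library, lst-1 ran from -0.138 to 0.0235, gld-2 from -0.00992 to 0.307, glp-1 from -0.00896 to 0.255 and sygl-1 from -0.183 to 0.450. Depth limits low genes: 2209 of 7240 averaged under 10 CPM.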

Other observations

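Pairs of related genes were compared after their values had been seen, as description. The paralog of gas-1, nduf-2.2 on chromosome III, averaged 272 CPM at 48 h and 270 CPM at 4 h, a change of -0.03 (log2), beside -3.59 for gas-1. Beside rpl-11.2, rpl-11.1 averaged 2702 CPM at 48 h and 2951 CPM at 4 h (-0.21). The X-linked cdk-11.2 changed by -2.06 and its autosomal paralog cdk-11.1 by -0.03, at 171 CPM at 48 h and 190 CPM at 4 h. Likewise ant-1.3, a mitochondrial carrier gene, changed by -1.94 and ant-1.1 by 0.12, and snrp-40.1 by -1.99 and snrp-40.2 by 0.12. In 2 further pairs, ife-5 changed by -0.59 and ife-1 by -0.15, and htp-2 by -0.53 and htp-1 by -0.48. In each of these 7 pairs 1 gene was called and the other was not (limma), and the difference within a pair was not tested.

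Position was also looked at after the values had been seen. Of the 106 autosomal genes called lower, 84 (79.2%) lay outside the middle of 3 equal parts of their chromosomes, against 57.9% of 6931 autosomal genes tested and 51.4% of the 35 called higher. Another gene called lower lay within 20 kb of 34 of the 135, and within 20 kb of 5.95% of the 7225 tested genes with coordinates. For genes called higher this was so of 6 of the 35, against 2.6% of the same 7225. Such neighbours included bath-13 and bath-18 on chromosome II, nhr-95 and nhr-145 on V, and spat-3 and pqn-65 on X. Some neighbours overlap in their coordinates, among them pbo-1 and Y71H2AL.2, fbxa-118 and fbxa-194, and F14D2.14 and F14D2.8. How reads that fall in both genes were counted is not stated in these sources. Gene families counted after the values had been seen gave 5 lower and 1 higher of 52 F-box genes, 4 lower and 1 higher of 20 nuclear hormone receptor genes, and 3 lower and 0 higher of 32 BATH genes, beside 1.86% lower and 0.483% higher of all genes. The families were not matched for level. Of autosomal genes averaging under 2 CPM 4.31% were called lower, of those at 2 to 5 CPM 4.34%, and of those at 5 to 10 CPM 4.48%.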
